A study of Mus musculus with 2 samples.

Results

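The 29 genes described here encode enzymes, regulators and a carrier of cholesterol and fatty acid synthesis. They were matched by symbol among the 47729 genes of the deposited tables, and all 29 had counts in both libraries. They comprise 18 enzymes of the sterol pathway (Acat2, Hmgcs1, Mvk, Pmvk, Mvd, Idi1, Fdps, Ggps1, Fdft1, Sqle, Lss, Cyp51, Msmo1, Nsdhl, Hsd17b7, Ebp, Sc5d and Dhcr7), 5 regulators and a carrier (Srebf1, Srebf2, Scap, Insig1 and Stard4), and 6 enzymes of fatty acid synthesis (Acly, Acaca, Fasn, Elovl6, Scd1 and Scd2). The series holds 2 single-cell libraries of femur bone marrow cells from C57BL/6NCrljOri (H-2b) mice, with 1 library per group. All cells received GM-CSF, a myeloid growth factor, at 40 ng/mL for 5 days. Without coculture, CD11b-high Ly6C-high cells were sorted. In the coculture, CD11b-mid Ly6C-mid cells were sorted after culture with human mesenchymal stromal cells (MSC), which sat in inserts with pores given as 0.4 µm, at 1 MSC to 5 marrow cells and after 24 h of preincubation. RPMI1640 is named for marrow culture and DMEM for the coculture. The sort gate, the coculture, the medium and the library differ together and cannot be told apart, and no source used here says how many mice were pooled. With 1 library per group no test was possible, and every interval below is a 95% interval that covers counting error only.

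Mammalian cells build cholesterol from acetyl-CoA through the mevalonate pathway. Its intermediates also supply the isoprenoid groups attached to proteins, and fatty acid synthesis draws on the same acetyl-CoA. The transcription factors SREBP2 (gene Srebf2) and SREBP1 (Srebf1) switch on both pathways when membrane sterol is low. They are held in the endoplasmic reticulum by INSIG1 together with the sterol sensor SCAP until sterol falls. Mature myeloid cells can take up lipid as well as make it, while dividing cells need new membrane.

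Cells were kept from 500 detected genes upward with a mitochondrial share of no more than 10%, and numbered 1817 without coculture and 3005 in the coculture. They held 27784963 and 29089241 UMIs (unique molecular identifiers, each marking 1 captured transcript), with medians of 7016 and 6031 per cell, and 4 barcodes occurred in both libraries. Cells were placed in classes by the share of their UMIs from marker genes. Classes of at least 50 cells were described, which gave 3 classes without coculture (831 neutrophil, 608 macrophage and 111 granule-rich neutrophil cells) and 9 in the coculture (850 B cell, 407 eosinophil, 328 basophil, 295 neutrophil, 223 mature dendritic cell, 93 T cell, 85 megakaryocyte, 65 progenitor and 53 macrophage cells). Without coculture, 0 of 1817 cells passed the eosinophil, mast cell or megakaryocyte gate, which allows a share of up to 0.165% each, and 1 barcode passed the basophil gate together with another. The genes that set a gate are high in it by construction. Among leading genes that no gate used were Ear1 and Ear2 in eosinophil cells, Vwf and Treml1 in megakaryocyte cells and Ighm and Ly6d in B cells. Eosinophil cells also held the 7 markers of granulocyte-monocyte progenitors at 7156 CPM and the 8 basophil markers at 5375 CPM, beside 88428 CPM of the 9 eosinophil markers. Their stage of maturation was not tested. The named sorts were for CD11b and Ly6C, and the coculture sort nevertheless held B and T cells by their defining markers. Barcodes that passed more than 1 gate (142 and 303) or none (117 and 281) were left out of the classes and kept in the library sums. In the coculture, the immunoglobulin genes Igha and Jchain and genes of matrix-producing cells (Sparc, Bgn, Tagln) were among the leading genes of the ungated cells. B cell markers summed to 5762 CPM there, plasma cell markers to 1732 CPM and stromal or endothelial markers to 417 CPM.

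Members at least 2-fold higher in the coculture library over all cells numbered 6, and the sequences just upstream of the RefSeq starts of 5 of them are shown because these 6 differed most in that direction. Each line gives the 150 bases before the start on the gene's own strand, from RefSeq with the table's build GRCm38.p6. Capitals mark a match to the sterol regulatory element core TCACNCCAC, the site bound by SREBP, or to a CCAAT box, on either strand. The stretch of Hmgcs1, added as the member with a match to that core, comes from chr13:119690201-119690350 (plus strand). Those of Idi1 and Cyp51 come from chr13:8885456-8885605 (plus) and chr5:4104698-4104847 (minus). The rest come from chrX:72918371-72918520 (plus) for Nsdhl, chr3:89454391-89454540 (plus) for Pmvk and chr3:129532236-129532385 (plus) for Elovl6.
Hmgcs1: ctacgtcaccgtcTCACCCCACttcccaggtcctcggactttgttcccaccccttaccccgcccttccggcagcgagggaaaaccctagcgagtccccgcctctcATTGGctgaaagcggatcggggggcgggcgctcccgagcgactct
Idi1: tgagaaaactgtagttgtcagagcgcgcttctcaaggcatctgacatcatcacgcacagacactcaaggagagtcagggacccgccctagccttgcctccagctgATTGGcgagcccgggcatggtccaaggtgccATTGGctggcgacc
Cyp51: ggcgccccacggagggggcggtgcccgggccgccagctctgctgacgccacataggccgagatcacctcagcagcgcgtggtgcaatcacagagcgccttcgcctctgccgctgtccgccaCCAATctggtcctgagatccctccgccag
Nsdhl: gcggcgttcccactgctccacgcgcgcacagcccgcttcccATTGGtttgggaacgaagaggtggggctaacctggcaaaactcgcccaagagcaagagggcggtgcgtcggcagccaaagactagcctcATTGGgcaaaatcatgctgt
Pmvk: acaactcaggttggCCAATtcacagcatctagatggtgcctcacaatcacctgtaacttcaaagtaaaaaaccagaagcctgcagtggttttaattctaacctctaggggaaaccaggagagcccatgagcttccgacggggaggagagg
Elovl6: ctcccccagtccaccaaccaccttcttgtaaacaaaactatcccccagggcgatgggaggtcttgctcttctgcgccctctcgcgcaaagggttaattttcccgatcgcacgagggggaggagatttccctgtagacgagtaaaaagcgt
The stretch of Hmgcs1, which encodes the synthase that makes HMG-CoA, holds 1 sterol element core and 1 CCAAT box. Idi1 and Nsdhl each hold 2 CCAAT boxes, Cyp51 and Pmvk 1 each, and Elovl6 neither motif. Promoter windows of 300 bases, 250 before to 50 after the start, were found for 23 of the 29 members. Sqle, Fdft1, Fdps, Stard4, Scd1 and Scd2 were not matched. The sterol element core was in the window of 1 of the 23 members (4.35%) and of 1.44% of 27025 genes. A CCAAT box was in the windows of 19 of the 23 (82.6%) and of 41.1% of all genes. The E-box CANNTG was in 18 of the 23 (78.3%) and in 74.99% of all genes. Matches were counted on both strands, and an E-box shared letters with a CCAAT box in the windows of Fasn, Hmgcs1 and Nsdhl. The GENCODE gene models of Idi1, Cyp51 and Elovl6 begin further upstream, inside the stretch shown. A match is a match of letters only. Other spellings of the sterol element were not searched, so a member without a match is not shown to lack such a site.

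Summed over all cells, the 29 members made up 1389 CPM (1376 to 1403, UMIs scaled to a common library total) without coculture against 1797 CPM (1782 to 1812) with it, which is 0.37 on the log2 scale (0.35 to 0.39). The 3 groups of members did not differ alike. Sterol enzymes summed to 644 CPM without coculture against 1122 CPM with it (log2 0.80, 0.77 to 0.83), the regulators and carrier to 179.9 and 199.6 CPM (0.15), and the fatty acid enzymes to 566 and 476 CPM (log2 ratio -0.25, -0.28 to -0.22). Of the 29 members, 6 were at least 2-fold higher in the coculture, against 12.7% of the 8668 genes measured at 10 CPM or more in either library, and 0 were at least 2-fold lower, against 11.7% of those genes. The members' median log2 ratio was 0.60, beside 0.03 over the measured genes, and 22 of the 29 lay above 0.

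The cells of the 2 libraries differ in how many were dividing, and this moved with the sums. With only the 1313 and 1768 cells whose share from 14 genes of DNA replication and mitosis was under 5 per 10000 UMIs, the log2 ratio of the 29 members was -0.09 (-0.12 to -0.07), that of the sterol enzymes 0.17 (0.12 to 0.21), and 1 member was at least 2-fold higher, against 10.4% of the genes measured there. The summed ratio thus had the opposite sign among these cells, a selection that also left out cells of intermediate share. Cell types described in 1 library alone entered both versions of the sum, but in changed parts. Of the 65 progenitor cells of the coculture, for example, 2 had the low share.

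Levels are shares of UMIs and were not scaled by transcript length. Among the early enzymes, Acat2, a cytosolic thiolase that joins acetyl-CoA units, was at 16.7 CPM without coculture against 30.5 CPM with it. Hmgcs1 (chr13:119690379-119708260, plus strand, GRCm38) was at 41.0 and 54.4 CPM. The kinase gene Mvk was at 18.4 and 24.3 CPM. Pmvk (chr3:89454541-89469013), whose kinase adds the next phosphate to mevalonate, was at 58.2 and 147.6 CPM, on the log2 scale 1.34 (1.26 to 1.43). Mvd, the decarboxylase that follows, was at 69.0 and 57.0 CPM, on the log2 scale -0.28 (-0.37 to -0.18). Neighbouring steps of the pathway thus stood on opposite sides of equal levels.

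Idi1 (chr13:8885501-8892451), the isomerase that makes the reactive isoprene unit, was at 26.2 CPM without coculture against 53.7 CPM with it (log2 1.04, 0.91 to 1.17). Fdps (chr3:89093588-89101959), which builds farnesyl diphosphate at the branch between sterols and protein prenylation, was at 95.1 and 282 CPM (log2 1.57, 1.51 to 1.63). It had the largest ratio of the 29 members over all cells. Ggps1, on the prenylation branch, was at 8.998 and 13.8 CPM. Fdft1, which makes squalene, was at 25.9 and 41.6 CPM. Without Fdps and Pmvk the log2 ratio of the other 16 sterol enzymes was 0.50 (0.46 to 0.53).

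The enzymes from squalene to cholesterol were mostly higher in the coculture by less than 2-fold. Sqle, the epoxidase, was at 30.2 and 46.7 CPM, the cyclase gene Lss at 10.4 and 18.3 CPM, and Msmo1, a C4 oxidase, at 63.6 and 92.7 CPM. Cyp51 (chr5:4081145-4104746), the lanosterol demethylase, was at 37.3 and 77.0 CPM (log2 1.05, 0.94 to 1.15), and Nsdhl (chrX:72918557-72958514), a C4 decarboxylating dehydrogenase, at 17.0 and 34.7 CPM (log2 1.03, 0.87 to 1.19). Both passed the 2-fold mark narrowly, and their intervals reach below it. Hsd17b7 was at 7.88 and 12.3 CPM, Sc5d at 25.2 and 36.9 CPM and Dhcr7, which removes the last double bond, at 17.6 and 30.4 CPM. Ebp, the sterol isomerase, was at 75.4 and 68.0 CPM, so that it and Mvd were the sterol enzymes with the higher level without coculture.

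Among the regulators, Srebf2 was at 53.2 and 62.8 CPM and Srebf1 (chr11:60199089-60222581) at 45.5 and 35.4 CPM, on the log2 scale -0.36. Scap was at 16.5 and 11.7 CPM (log2 ratio -0.50). Insig1 was at 26.3 and 39.9 CPM, and the sterol carrier gene Stard4 at 38.3 and 49.7 CPM. In fatty acid synthesis Acly, which makes cytosolic acetyl-CoA from citrate, was at 133.5 and 104.1 CPM, the carboxylase gene Acaca at 13.8 and 17.8 CPM and the synthase gene Fasn at 56.2 and 51.8 CPM. Elovl6 (chr3:129532355-129638495), which lengthens palmitate, was at 8.49 and 20.6 CPM (log2 1.28, 1.06 to 1.499), the only fatty acid enzyme of the 6 past the 2-fold mark. The desaturase genes went opposite ways. Scd1 (chr19:44394455-44407879) was at 32.2 and 56.2 CPM, and its neighbour Scd2 (chr19:44293674-44306864), the most abundant member in the library without coculture, at 321 and 225 CPM. Without Scd2 the other 5 fatty acid enzymes summed to 244 and 250 CPM, on the log2 scale 0.04 (-0.01 to 0.08).

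Several members share sequence or position with other genes. Scd1 and Scd2 are close relatives, and Acat2 has a close copy, Acat3, with 0 and 10 UMIs. Fdft1, Cyp51, Srebf1 and Ggps1 overlap Ctsb, Akap9, Rai1 and Arid4b on the other strand. The sources used here do not say whether counting used strand, and whether reads of those pairs were separated was not tested. Among same-strand neighbours within 5000 bases 3' of a member were Rusc1 for Fdps (574 and 410 UMIs) and Cyba for Mvd (59367 and 34591 UMIs).

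Other genes of the pathways, in lists drawn up beside the members, were counted in the same way, against 12.7% of all measured genes higher and 11.7% lower. Of 15 further sterol pathway genes 12 were measured, 2 of them at least 2-fold higher in the coculture and 1 lower, with a median log2 ratio of -0.28, shares near those of all genes. Tmem97, a sterol-responsive membrane protein gene, was among the higher ones, at 27.9 and 89.5 CPM (log2 1.68). Npc1, which exports cholesterol from lysosomes, was at 79.9 and 22.4 CPM (-1.83). Of 19 further fatty acid genes 11 were measured, with Acss2, an acetyl-CoA synthetase gene, higher (5.54 and 22.6 CPM) and Elovl7 lower (16.02 and 6.94 CPM). Of 8 genes of sterol export and storage 6 were measured, 0 were higher and 2 were lower. These were the exporter gene Abcg1 (240 and 26.2 CPM) and the cholesterol-esterifying enzyme gene Soat1 (225 and 58.1 CPM).

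Across the 12 marker-gated classes, the summed level of the 29 members ranged from 521 to 2499 CPM. Progenitor cells (2499 CPM, 2415 to 2586), megakaryocyte cells (2429 CPM, 2360 to 2501) and eosinophil cells (2429 CPM, 2393 to 2466) stood highest, and their intervals overlap. Macrophage cells followed, at 1671 CPM (1583 to 1763) in the coculture and 1638 CPM (1619 to 1657) without, also overlapping. Basophil cells were at 1517 CPM, coculture neutrophil cells at 1339 CPM, mature dendritic cells at 1100 CPM and B cells at 903 CPM, each apart from the next in counting intervals. Neutrophil and granule-rich neutrophil cells without coculture, at 754 and 712 CPM with overlapping intervals, and T cells, at 521 CPM (422 to 636), were lowest. The order of neighbouring classes depended on the processing. With every cell weighted the same, basophil cells were at 1131 CPM and stood below coculture neutrophil cells. Without mitochondrial, ribosomal protein and immunoglobulin genes in the total, B cells stood above mature dendritic cells. In that setting T cells stood above both neutrophil classes without coculture. A class comparison cannot tell more enzyme RNA per cell from less of other RNA, since a CPM is a share of the class's UMIs.

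**Figure D1:**
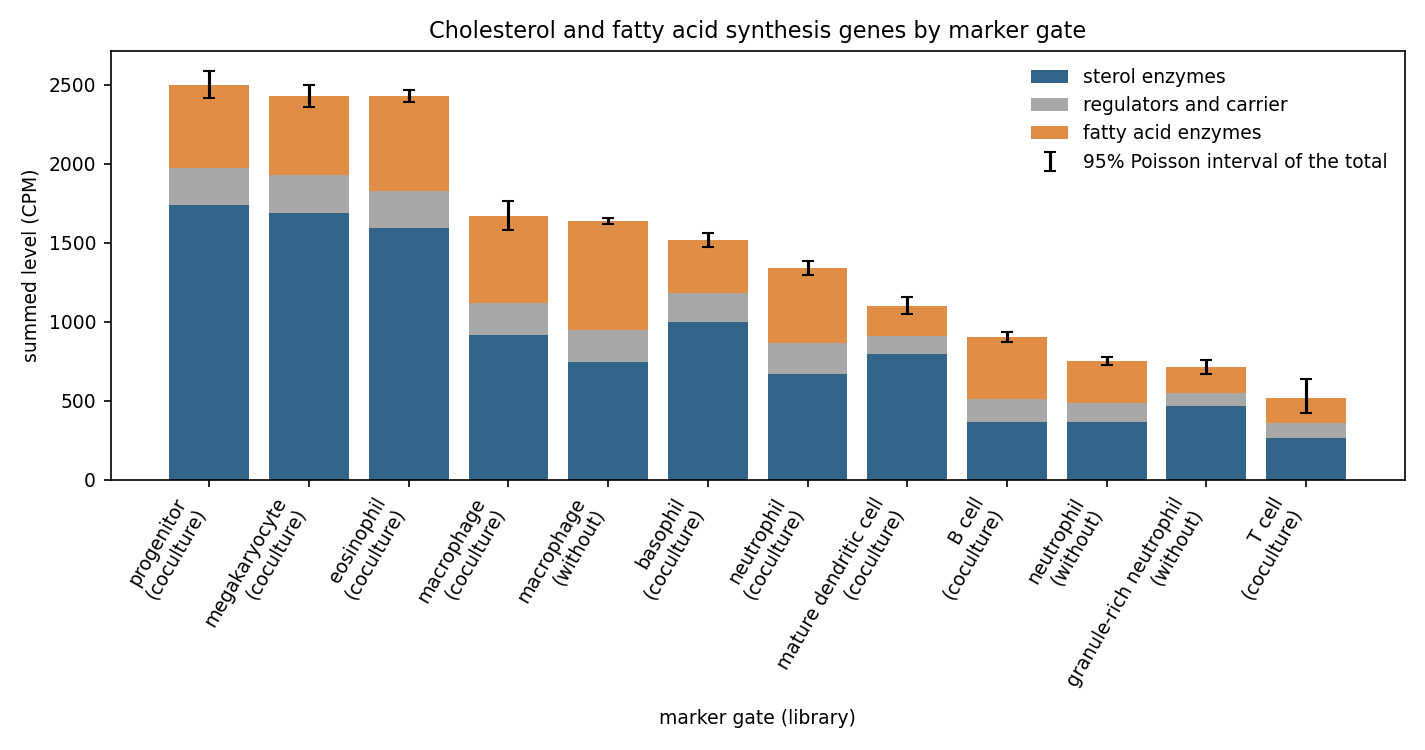
Summed level in CPM (vertical axis, linear from 0) for each marker gate and library (horizontal axis), stacked by sterol enzymes, regulators with the carrier, and fatty acid enzymes; bars on top are 95% Poisson intervals of the total. Progenitor, megakaryocyte and eosinophil cells reach 2429 to 2499 CPM, mostly sterol enzymes, while macrophage, neutrophil, B and T cells hold a larger part as fatty acid enzymes.

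The make-up of the sum also differed between classes. Sterol enzymes gave 1739 CPM of the total in progenitor cells, 1689 CPM in megakaryocyte cells and 1591 CPM in eosinophil cells, against 747 CPM in macrophage cells without coculture and 364 CPM in B cells. Fatty acid enzymes were highest in macrophage cells without coculture, at 689 CPM, followed by eosinophil cells at 603 CPM. In B cells they gave 390 CPM, more than the sterol enzymes. The regulators and carrier spanned a narrower range, from 81.5 CPM in granule-rich neutrophil cells to 240 CPM in megakaryocyte cells.

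The classes with the highest sums were also the classes with the most dividing cells and large libraries. The 14 genes of replication and mitosis summed to 3334 CPM in eosinophil cells, 3167 CPM in progenitor cells, 3118 CPM in megakaryocyte cells and 2821 CPM in basophil cells, and to between 230 and 1581 CPM in the other 8 classes. Median UMIs per cell were 21116 in progenitor, 22503 in megakaryocyte and 17997 in eosinophil cells, but also 23667.5 in macrophage cells without coculture, and 1884 in T cells. Over the 12 classes the rank correlation (Spearman) of the 29-member sum was 0.65 with the dividing list and 0.81 with median UMIs, given as a description, since classes of 1 library share its preparation. Classes were therefore also split. Eosinophil cells with a dividing share of at least 20 per 10000 UMIs were at 2492 CPM and those under 5 at 2088 CPM, and megakaryocyte cells at 2492 and 2278 CPM. The low-share values of both classes were above the totals of the macrophage, basophil and all lower classes, which hold cells of every share. For progenitor cells no low-share value is given, as 2 cells had the low share. The parts of division and depth in the class sums were not tested.

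Basophil and B cells differed more within themselves. Basophil cells with a high dividing share were at 2018 CPM and those with a low share at 979 CPM (log2 1.04, 0.94 to 1.15), with Fdps at 327 and 77.5 CPM and Idi1 at 52.2 and 14.0 CPM. The deeper 164 basophil cells, with a median of 11082.5 UMIs, were at 1761 CPM and the shallower 164 at 757 CPM. Basophil cells with a high dividing share were also the deeper ones, with a median of 14307 UMIs beside 5527 in those with a low share. High-share B cells were at 1344 CPM and low-share B cells at 795 CPM (log2 0.76), and their sterol enzymes at 661 and 292 CPM. Macrophage cells without coculture were at 1724 and 1629 CPM, close to equal.

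Against all other cells of their library, 11 of 27 measured members were at least 2-fold higher in macrophage cells without coculture (background 8.96%) and 0 lower (4.24%). They were Sqle, Idi1, Cyp51, Lss, Dhcr7, Mvd, Nsdhl, Fasn, Elovl6, Scd1 and Scd2. Neutrophil cells without coculture had 0 higher (5.19%) and 14 of 26 lower (14.1%), and granule-rich neutrophil cells 1 higher, Fdps (3.98%), and 21 of 27 lower (37.7%). In the coculture, eosinophil cells had 2 of 29 higher, Fdps and Cyp51 (4.86%), and 0 lower (18.1%). Megakaryocyte cells had 4 higher, Sqle, Idi1, Fdft1 and Dhcr7 (14.2%), and 1 lower, Scd1 (13.3%). Progenitor cells had 1 higher, Fdps (6.5%), and 0 lower (20%). As shares of the measured members, the higher ones in these 3 coculture classes were 6.90%, 13.8% and 3.45%, near or below the backgrounds.

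In the lymphoid and dendritic classes 1 member each was higher, a share below the background, and most were lower. B cells had 1 higher, Scd1 (12.9%), and 19 lower (17.6%). Mature dendritic cells had 1 higher, Pmvk (17.4%), and 18 lower (24.5%), and T cells 1 higher, Ggps1 (19.9%), and 17 lower (20.4%). Ggps1 in T cells rests on few counts, at 32.2 CPM (11.8 to 70.1). That interval holds its level over all coculture cells, 13.8 CPM. The lower members in T cells also rest on few counts, as the class held 97 UMIs of the 29 members in all. Coculture neutrophil cells had 0 higher (10.7%) and 10 lower (24%), basophil cells 0 higher (4.6%) and 1 lower (10%), and coculture macrophage cells 0 higher (9.97%) and 2 lower (13.9%).

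**Figure D2:**
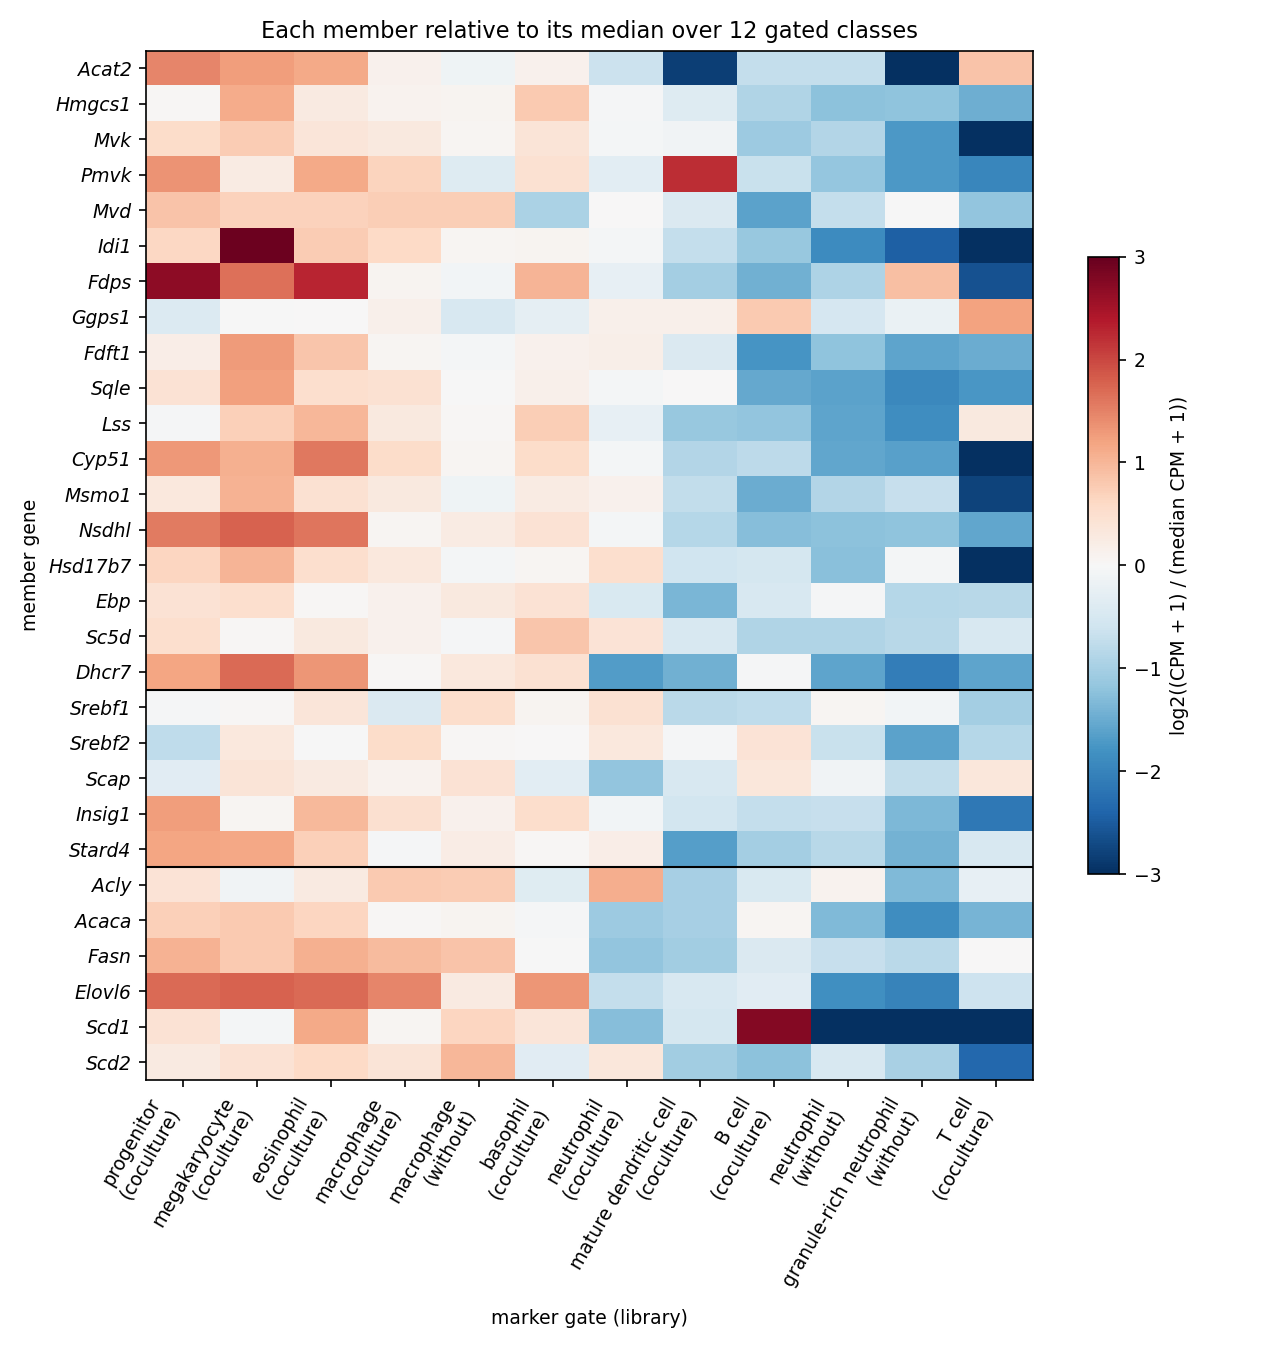
Each member (rows, grouped as sterol enzymes, regulators with the carrier, and fatty acid enzymes) in each marker gate (columns, ordered by summed level), coloured by log2 of its CPM plus 1 over its median CPM plus 1 across the 12 classes. Most rows grade from red at left to blue at right, and single squares break the grade: Idi1 in megakaryocyte, Pmvk in mature dendritic and Scd1 in B cells.

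Some sterol enzymes ranked the classes in nearly the same order. The rank correlation of a member with the sum of the other sterol enzymes, over 12 classes and as a description, was at least 0.8 for 9 of the 18 sterol enzymes and for 11 of the 29 members, and had a median of 0.75 over the 29. Lss (0.55), Pmvk (0.62), Acat2 (0.64) and Mvd (0.66) were less alike. Nsdhl and Mvk were most alike, both at 0.94, followed by Idi1 and Msmo1 at 0.92, and the SCAP-binding Insig1 stood at 0.88. Elovl6 was the fatty acid enzyme nearest to the sterol order, at 0.83. Members that did not follow it were Ggps1 (-0.36), Scap (-0.03), Srebf2 (0.14), Acly (0.29) and Srebf1 (0.33). Srebf2 itself was highest in coculture macrophage cells, at 86.6 CPM, and B cells, at 78.3 CPM, with overlapping intervals, and was at 34.5 CPM in progenitor cells, which had the highest sum.

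By class, 12 members were highest in megakaryocyte cells, 5 in progenitor cells, 3 in eosinophil cells and 3 in macrophage cells without coculture. Only 8 of the 29 had a highest class whose interval lay apart from that of the next: Idi1, Sqle, Fdft1 and Msmo1 in megakaryocyte cells, Fdps in progenitor cells, Pmvk in mature dendritic cells, Scd1 in B cells and Scd2 in macrophage cells without coculture. T cells were lowest for 13 members and granule-rich neutrophil cells for 8. In T cells Idi1, Cyp51, Mvk, Hsd17b7 and Scd1 had 0 UMIs, which allows up to 16.1 CPM each. Scd1 in granule-rich neutrophil cells without coculture, at 0.715 CPM from 1 UMI, lay below that limit. Whether a lowest class lay apart from the next was not examined.

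Idi1 was at 250 CPM (228 to 273) in megakaryocyte cells, 4.60-fold the next class, eosinophil cells at 54.4 CPM, and between 0 and 49.5 CPM in the others. With every cell thinned to 2000 UMIs, 24.7% of the 85 megakaryocyte cells (15.99 to 35.3) had an Idi1 UMI, against 16% of 50 coculture macrophage cells, 9.69% of eosinophil cells and 0.830% of neutrophil cells without coculture, and unthinned 71.8% had one. The thinned mean was 0.435 UMIs per cell, and whether the UMIs were concentrated in a part of the cells was not tested. Cells with a high dividing share held 285 CPM and those with a low share 169 CPM (log2 0.75, 0.38 to 1.14), both above every other class. Fdft1, Sqle and Msmo1 were also highest there, at 78.5, 92.2 and 165.5 CPM.

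Pmvk was at 411 CPM (379 to 445) in mature dendritic cells, defined by Fscn1, Ccr7 and Ccl22. That was 1.85-fold the level in progenitor cells, at 222 CPM, and 4.72-fold its median over the 12 classes, 87.0 CPM. Of the thinned mature dendritic cells, 54.0% (47.1 to 60.9, 12 of 223 cells left out as too shallow) had a Pmvk UMI, and unthinned 77.1%. The enzymes on either side of it did not share that rank, with Mvk at 19.5 CPM, near its median of 21.2 CPM over the 12 classes, and Mvd at 37.0 CPM, beside a median of 50.1 CPM. The deeper and shallower cells were alike, at 419 and 394 CPM, and the dividing list was at 230 CPM, the lowest of the 12 classes.

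Scd1 was at 191 CPM (176 to 207) in B cells, 3.104-fold the level in eosinophil cells, at 61.6 CPM. After thinning, 27.4% of B cells (24.2 to 30.8, with 121 of 850 cells left out) had a Scd1 UMI, against 10.97% of eosinophil cells, 8.51% of macrophage cells without coculture, 6.64% of mature dendritic cells and 0.277% of neutrophil cells without coculture, and 43.1% and 0.722% of B and neutrophil cells had one unthinned. Median UMIs per cell were 2854 in B cells and 4023 in those neutrophil cells. B cells with and without an Ighd UMI, the immunoglobulin of mature B cells, were at 199.5 and 164 CPM. High and low dividing shares gave 195 and 192 CPM (log2 0.02, -0.32 to 0.35), while the sterol enzymes of the same B cells differed by 1.18. Other fatty acid enzymes did not share that rank in B cells, where Fasn was at 27.4 CPM, Scd2 at 82.8 CPM and Elovl6 at 6.77 CPM.

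Fdps was at 672 CPM (629 to 718) in progenitor cells, 515 CPM (498 to 532) in eosinophil cells and 330 CPM in megakaryocyte cells. It followed the dividing list over the 12 classes more closely than any other member (rank correlation 0.87). After thinning, 75.4% of progenitor cells and 53.8% of eosinophil cells had a Fdps UMI, against 5.26% of neutrophil cells without coculture, and unthinned 100% and 88.9%. It was also the member that was high in granule-rich neutrophil cells, at 194.5 CPM, beside 54.9 CPM in the other neutrophil cells without coculture.

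Scd2 was at 396 CPM (387 to 406) in macrophage cells without coculture, 1.32-fold the level in eosinophil cells, at 300 CPM, and at 37.6 CPM in T cells. Acly was highest in coculture neutrophil cells, at 189 CPM (173 to 207), with an interval overlapping that of coculture macrophage cells, at 155 CPM. The desaturase genes thus had different leading classes, B cells for Scd1 and macrophage cells without coculture for Scd2.

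**Figure D3:**
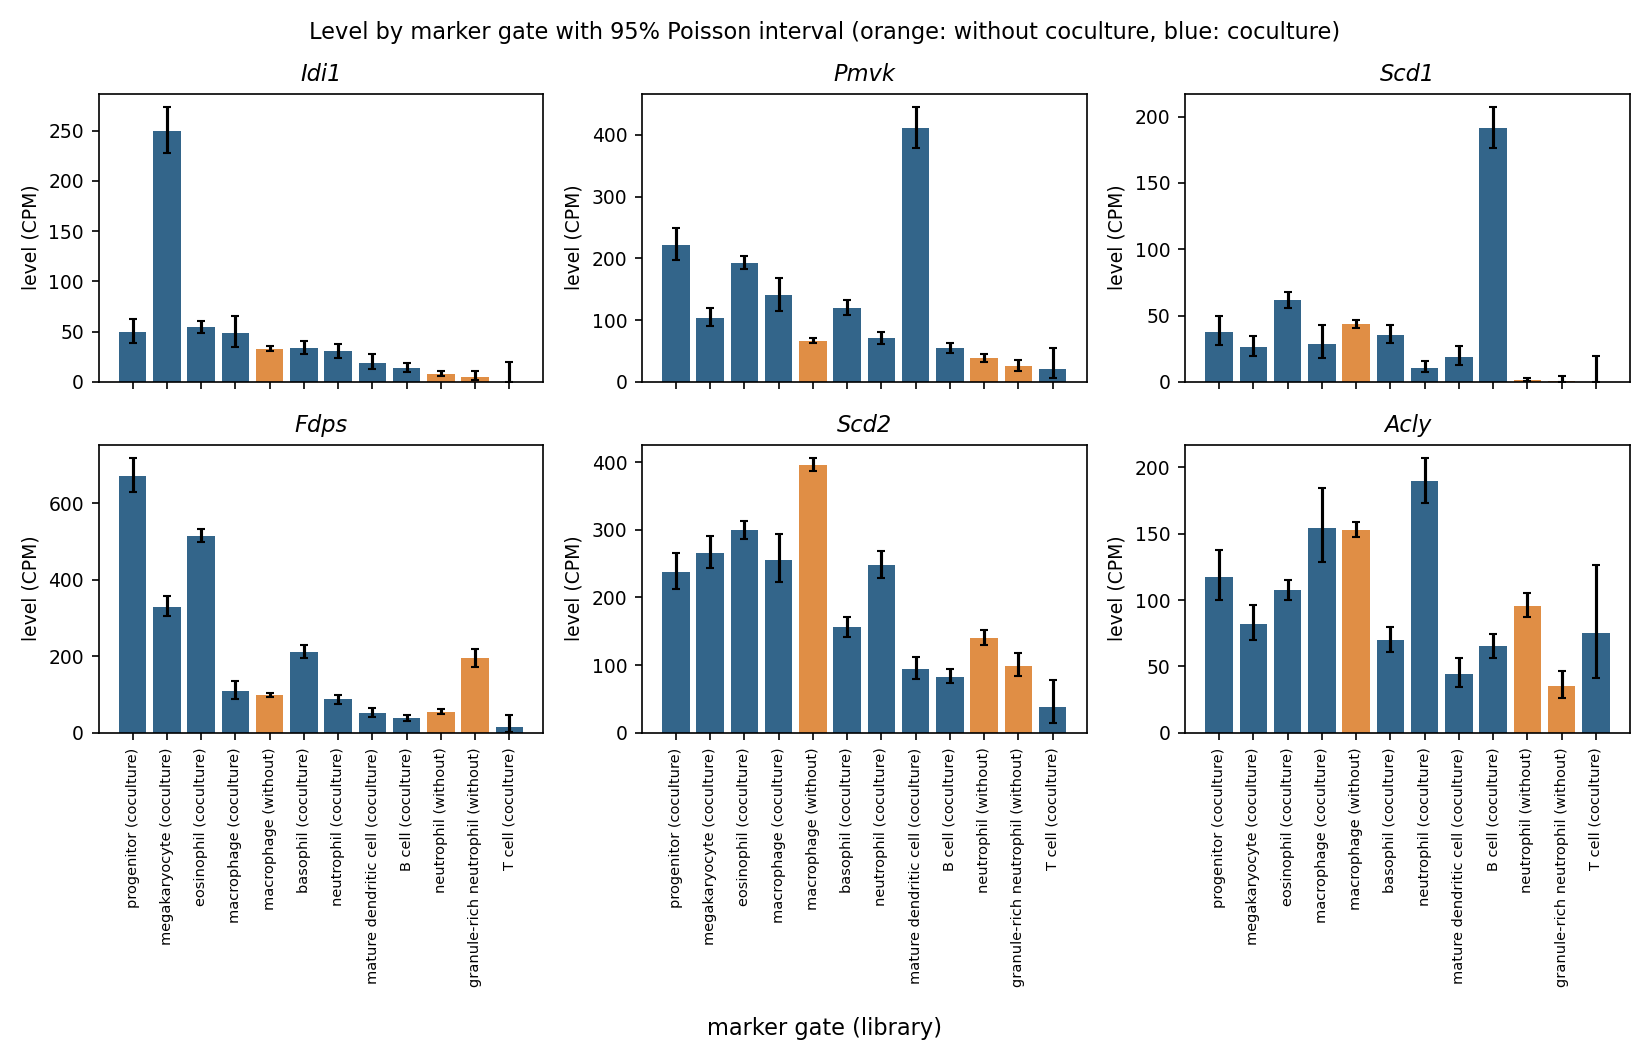
Level in CPM (vertical axes, linear from 0) of Idi1, Pmvk, Scd1, Fdps, Scd2 and Acly in each marker gate and library, with 95% Poisson intervals. Idi1, Pmvk and Scd1 each show 1 tall bar, at 250, 411 and 191 CPM, while Fdps is tall in 3 classes and Scd2 and Acly are spread over most.

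The neutrophil gate had the most cells of the gates filled in both libraries, 831 and 295. Its 29-member sum was 754 CPM (729 to 780) without coculture against 1339 CPM (1295 to 1385) with it, or 0.83 in log2 (0.76 to 0.90). Sterol enzymes were at 365 and 668 CPM (0.87, 0.77 to 0.97), the regulators and carrier at 121 and 196 CPM (0.70) and the fatty acid enzymes at 268 and 476 CPM (0.83, 0.71 to 0.94). Of 26 measured members 13 were at least 2-fold higher in the coculture, against 8.49% of the 7637 genes measured there, and 1 was lower, against 8.54%. The members' median log2 ratio was 1.00, beside -0.11 over those genes, and 23 of the 26 lay above 0.

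Sterol enzymes made up 10 of the 13. Idi1 was at 7.81 CPM without coculture against 30.3 CPM with it (log2 1.96, 1.37 to 2.57). Hmgcs1 was at 19.1 and 44.5 CPM (1.22, 0.81 to 1.64), Sqle at 11.9 and 36.8 CPM (1.62, 1.13 to 2.13) and Cyp51 at 14.3 and 42.2 CPM (1.56, 1.10 to 2.02). Fdft1 (13.2 and 36.4 CPM), Lss (3.69 and 10.7), Sc5d (15.6 and 40.3), Msmo1 (42.5 and 86.3), Nsdhl (6.94 and 16.9) and Hsd17b7 (3.47 and 14.2) completed the 10. Several of these rest on few counts, such as 16 and 37 UMIs for Hsd17b7 and 17 and 28 for Lss.

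The rest of the pathway in the neutrophil gate was mixed. Fdps (54.9 and 87.4 CPM), Pmvk (38.2 and 70.2 CPM), Mvd (30.2 and 50.2 CPM) and Mvk (11.1 and 20.3 CPM) were higher by less than 2-fold. Ebp was lower, at 65.5 and 48.3 CPM (log2 ratio -0.44, -0.75 to -0.14), and Dhcr7 near equal at 5.43 and 4.98 CPM. Srebf2 was at 36.7 and 74.0 CPM (1.01, 0.71 to 1.32) and Stard4 at 20.8 and 44.1 CPM (1.08, 0.68 to 1.49). Scap was the member more than 2-fold lower, at 11.5 and 4.98 CPM from 53 and 13 UMIs. Acly, at 95.9 and 189 CPM (0.98), stayed just under the 2-fold mark, and Scd2 was at 141 and 248 CPM (0.82). Fasn was at 22.8 and 15.7 CPM (log2 ratio -0.54, -1.09 to -0.002).

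Scd1 had the largest ratio in the neutrophil gate, at 1.52 CPM from 7 UMIs without coculture against 10.7 CPM from 28 UMIs in the coculture (log2 2.82, 1.59 to 4.26). After thinning, 1.82% of coculture neutrophil cells had a Scd1 UMI. Coculture neutrophil cells also held 13.04 CPM of the B cell gene Cd79a and 119 CPM of the eosinophil gene Prg2, which had 0 UMIs in neutrophil cells without coculture, and the part of RNA from other cells in the Scd1 value was not tested.

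The neutrophil gates of the 2 libraries did not hold the same cells. S100a9 was at 77381 CPM without coculture against 31950 CPM with it, Csf3r at 424 and 170 CPM and Retnlg at 667 and 4639 CPM. All 7 monocyte markers had UMIs in both, and their sum was 509 and 1781 CPM. The 15 macrophage markers summed to 25087 and 14328 CPM, and 7 and 5 of the 9 megakaryocyte or platelet markers to 9.77 and 1138 CPM, with Gp1bb at 5 and 0 UMIs. The dividing list was lower in the coculture, at 720 and 444 CPM. With only cells of low dividing share the log2 ratio of the sum was 0.87 and 12 of 26 measured members were higher (9.04% of all genes measured), and with only cells of 4000 to 10000 UMIs it was 0.88 and 15 of 22 were higher (11.3%). Within a library, cells with S100a8 and S100a9 at 300 per 10000 UMIs or more and the others were alike, at 751 and 766 CPM without coculture and 1325 and 1379 CPM in the coculture. With genes above 0.5% of UMIs left out of the total, the sums were 1220 and 2124 CPM. The parts of the monocyte and platelet markers in the result were not tested.

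**Figure D4:**
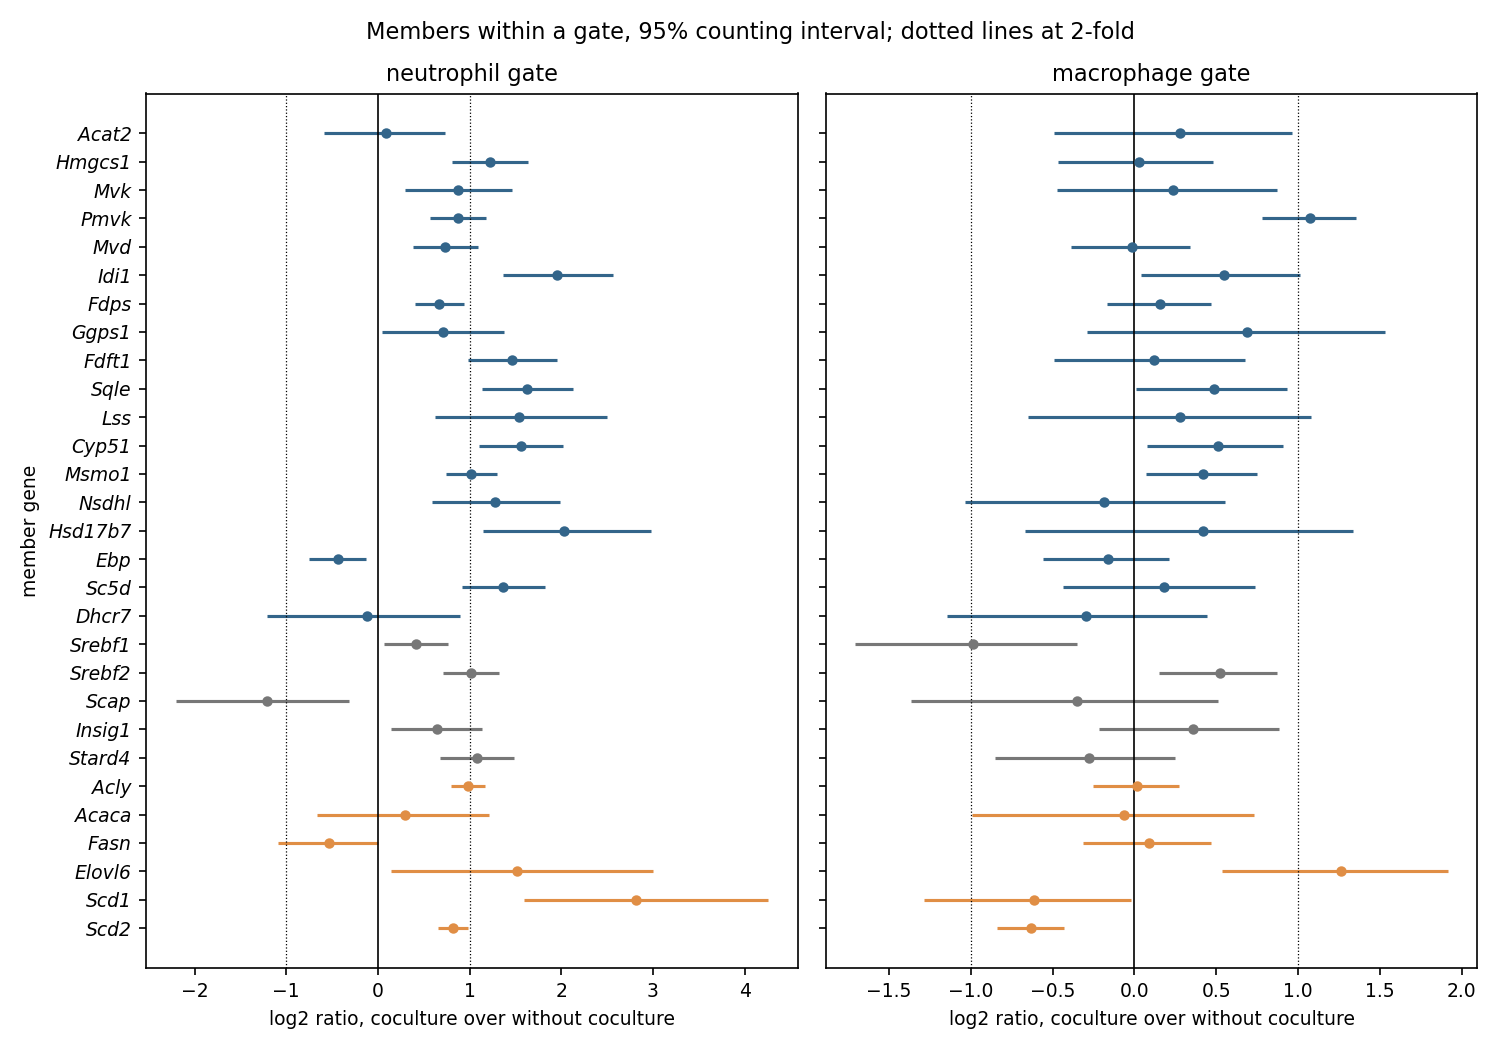
Log2 ratio of coculture over no coculture (horizontal axes) for each member (vertical axis) within the neutrophil gate and the macrophage gate, with 95% counting intervals; blue marks sterol enzymes, grey the regulators and carrier, orange the fatty acid enzymes, and dotted lines 2-fold. The axes of the panels differ in range. In the neutrophil gate 13 measured members lie beyond the right dotted line and in the macrophage gate 2, Pmvk and Elovl6.

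Macrophage cells gave another picture. Their sum was 1638 CPM without coculture against 1671 CPM with it (log2 0.03, -0.05 to 0.11), with sterol enzymes at 747 and 917 CPM (0.29, 0.19 to 0.40), the regulators and carrier at 201.5 and 200.4 CPM and the fatty acid enzymes at 689 and 554 CPM (log2 ratio -0.31, -0.45 to -0.18). Of 29 measured members 2 were at least 2-fold higher (background 7.95%), Pmvk at 66.5 and 140 CPM (1.07, 0.78 to 1.35) and Elovl6 at 10.8 and 26.0 CPM (1.26, 0.54 to 1.91), and 0 were lower (12.2%). Srebf1 was at 49.1 and 24.7 CPM (log2 ratio -0.99, -1.71 to -0.35), Scd2 at 396 and 256 CPM (-0.63, -0.84 to -0.43) and Scd1 at 43.6 and 28.4 CPM (-0.62, -1.28 to -0.02). Of the other fatty acid enzymes, Acly was at 153 and 155 CPM, Fasn at 68.6 and 73.0 CPM and Acaca at 16.8 and 16.1 CPM. Idi1, at 33.1 and 48.2 CPM (0.55, 0.04 to 1.01), and Hmgcs1, at 48.6 and 49.5 CPM, differed by less than in the neutrophil gate. The coculture side held 53 cells, and its macrophage cells differed in identity: Gpnmb was at 1079 and 19.8 CPM, C1qa at 67.9 and 2225 CPM and Lyz2 at 30105 and 2271 CPM, and the 11 dendritic cell markers summed to 3833 and 17776 CPM. The 15 macrophage markers summed to 48556 and 13689 CPM, so that in the coculture they stood below the dendritic cell markers, and the megakaryocyte or platelet markers to 89.4 and 2047 CPM. The part of these differences in the result was not tested. Granule-rich neutrophil cells, with 111 and 19 cells, were at 712 and 1557 CPM (1.13, 0.94 to 1.31).

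Within each library, macrophage cells held more of the members than neutrophil cells did. Without coculture the sums of 1638 and 754 CPM gave a log2 ratio of 1.12 (1.07 to 1.17), 15 of 27 measured members were at least 2-fold higher in macrophage cells (background 16.7%) and 0 lower (6.79%). Fatty acid enzymes differed most (1.36, 1.28 to 1.45), led by Scd1 at 43.6 and 1.52 CPM and Elovl6 at 10.8 and 1.74 CPM. In the coculture the ratio was 0.32 (0.23 to 0.41), with 6 of 29 members higher (13.8%) and 0 lower (7.15%). Those 6 were Dhcr7, Scap, Fasn, Acaca, Elovl6 and Scd1, and Fasn was at 73.0 CPM in macrophage and 15.7 CPM in neutrophil cells. Srebf1 was higher in macrophage cells without coculture (log2 0.47) and higher in neutrophil cells in the coculture (log2 ratio -0.93, -1.69 to -0.24).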

How the data were processed

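Raw UMI counts per gene and barcode were deposited by the authors as sparse matrices, 1 per library, with software version 3.1.0 per the file headers. Cell Ranger, bcl2fastq and build mm10 are named in the submitters' processing notes. The deposited barcode and gene name lists were used as given, and GENCODE M21 gave GRCm38 positions. The libraries held 28294186 UMIs over 2180 barcodes (without coculture) and 29217182 over 3134 (coculture). Kept barcodes had at least 500 genes and at most 10% mt- UMIs. No doublet caller was run.

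Counts were summed over all kept cells or over 11 marker gates, each a minimum share of a cell's UMIs from marker genes, and given as CPM. The cuts per 10000 UMIs were 40 for eosinophil (Prg2, Epx, Prg3), 10 for basophil (Mcpt8, Cd200r3), 16 for mast cell (Gzmb, Tpsb2, Tpsab1, Cma1, Mcpt4), 16 for B cell (Cd79a, Cd79b, Ms4a1 and Ebf1 among its genes), 32 for mature dendritic cell (Ccr7, Fscn1, Ccl22, Il4i1, Cacnb3), 50 for megakaryocyte (Pf4, Gp1bb, Itga2b, Gp9, Gp1ba), 100 for progenitor (Elane, Mpo, Prtn3, Ctsg), 10 for T cell (Cd3d, Cd3e, Cd3g, Trbc1, Trbc2, Trac, Cd8b1), 120 for granule-rich neutrophil (Ltf, Camp, Ngp), 20 for neutrophil (Csf3r, Cxcr2, Il1r2, Slfn1, Lilra6, Trem1, Mmp9, Retnlg, Asprv1) or 300 of S100a8 and S100a9, and 20 for macrophage (Mrc1, Csf1r, Gpnmb, Wfdc17, Ctsk, Lpl, Atp6v0d2, C1qa, C1qb, C1qc, Adgre1). A cell passing the granule-rich and the neutrophil gate counted as granule-rich, and cells passing other pairs were left out. The mast cell gate left 3 cells and is not described.

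Intervals are exact: Poisson for CPM, conditional binomial for ratios and Clopper-Pearson for shares of cells, at 95%. A count of 0 allows 3 UMIs. Genes were measured at 10 CPM or more on either side of a comparison, and counted as differing at 2-fold. All 29 members are named, and other genes came from fixed lists, of which some genes are not reported here. Thinning drew 2000 UMIs per cell without replacement. The code was tested on simulated counts. Versions were Python 3.11.15, numpy 2.4.6, scipy 1.17.1, pandas 2.3.3, R 4.3.3 and edgeR 4.0.16, the last for TMM factors only.

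The members and lists were chosen with earlier results of these data known. Gates and cuts were set after marker shares were seen. A first version of the gates was replaced after the class sums had been seen, because basophil and mast cell gates overlapped and granule-rich cells were ungated. The macrophage gate comparison and the sequences shown were chosen after values were seen.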

Additional observations from a re-analysis of the deposited data

Results flagged for a closer look

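Several members went opposite ways in the 2 libraries or in the 2 gates, each with 1 library on either side, so none of these differences was tested. Srebf1 was higher in macrophage than in neutrophil cells without coculture (log2 0.47) and lower in the coculture (-0.93), and Acly likewise (0.67 and -0.29). The ratio of coculture over no coculture was positive in the neutrophil gate and negative in the macrophage gate for the summed fatty acid enzymes (0.83 and -0.31), for Srebf1 (0.42 and -0.99), for Scd1 (2.82 and -0.62) and for Scd2 (0.82 and -0.63). Pairs were listed here because their intervals lay on opposite sides of 0, so their lying apart follows from that choice. Scd2 was the largest part of the fatty acid sum in the macrophage gate. There Acly, Fasn and Acaca were near equal (0.02, 0.09 and -0.07) and Elovl6 was higher (1.26), so the negative sum was not shared by all its enzymes.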

How the results depend on the processing

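With 1 library per group nothing could be left out in turn. No paired analysis was possible because each group holds 1 library and no test was run. The summed log2 ratio of the 29 members over all cells, 0.37, was 0.33 without the 5% of barcodes with most UMIs, 0.51 without mitochondrial, ribosomal protein and immunoglobulin genes in the total, 0.35 with every cell weighted the same, 0.23 with TMM factors (edgeR) and -0.094 with cells of low dividing share only. Under those settings, in that order, the sterol enzymes (0.80) were at 0.69, 0.94, 0.64, 0.66 and 0.17, and at 0.50 without Fdps and Pmvk. The fatty acid enzymes (-0.25) were at -0.19, -0.11, -0.014, -0.39 and -0.47, and at 0.037 without Scd2. Of members at least 2-fold higher over all cells, 6, there were 3 with TMM (10.5% of all measured genes), 15 at a 1.5-fold limit (23.0%) and 1 with low dividing share (10.4%), and in the neutrophil gate (13) there were 2 of 8 measured at a minimum of 50 CPM (8.69%) and 21 at 1.5-fold (15.4%). The neutrophil gate ratio (0.83) was 0.69 with every cell weighted the same, 0.94 with gate cuts halved, 0.72 with cuts doubled and 0.71 with cells of several gates put in their highest. The macrophage gate ratio (0.03) was 0.13 with every cell weighted the same. The share of B cells with a Scd1 UMI was 43.1% unthinned. Why these values moved was not tested. The low dividing share, depth range and left-out member settings were chosen after seeing the data. Depth limits the T cells most, where 54 of 93 cells were too shallow to thin.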
